A study of Mus musculus with 8 samples.

Results

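The mitochondrial ribosomal protein genes are the nuclear genes named Mrpl and Mrps, and their messages were followed in nuclei of mouse hippocampal pyramidal cells that had been classed by their activity during navigation. Members were chosen by symbol alone: Mrpl or Mrps, a number and at most 1 further letter. This took 78 of the 15519 genes in the deposited table. By their established positions, 26 belong to the small subunit and 51 to the large subunit. The latter include Mrps18a and Mrps30, whose proteins sit in the large subunit in spite of their names. The remaining member, Mrps36, is now placed in the 2-oxoglutarate dehydrogenase complex. Of the 77 ribosomal members, 46 have a bacterial counterpart and 31 are specific to mitochondrial ribosomes.

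The mitochondrial ribosome translates the few messages encoded by mitochondrial DNA, which are core subunits of the respiratory chain and of ATP synthase. All of its proteins are encoded in the nucleus, made in the cytosol and imported. Neurons depend on oxidative phosphorylation, and loss of mitochondrial translation lowers the respiratory complexes that contain mitochondrially encoded subunits.

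The study compared place cells, which are hippocampal pyramidal cells that fire at particular locations. It used wild-type (WT) mice in both groups. After 2-photon imaging in vivo, chosen cells were phototagged, their nuclei were collected, and nuclear RNA was made into SMART-Seq libraries, a method built on full-length reverse transcription of polyadenylated RNA. There were 4 libraries of Day 0 place cells and 4 libraries of Recurring place cells. The labels name the classes without defining them, and give no age, sex or batch. Each title names a different mouse, and the mouse numbers of Day 0 are all lower than those of Recurring. Anything that follows that order cannot be told apart from class. Beyond that nothing describes how the libraries were separated, so a p-value reflects no more than the variation seen among the 8 libraries. Replicate numbers 1 to 4 name libraries within a group, pair nothing, and give the order of all values below.

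Reads recovered from the deposited values came to 8374986 to 11789782 per library in Day 0 and 8613854 to 14887866 in Recurring. Genes with at least 1 read numbered 10718 to 13807 in Day 0 and 10904 to 13059 in Recurring. All 14 markers of CA1 pyramidal cells, such as Slc17a7 and Wfs1, were in the table, with summed normalized counts of 33040 to 44680 in Day 0 and 34520 to 50850 in Recurring. Markers of other cells were read too. For astrocytes, 12 of 13 markers were in the table (without Aqp4), summing to 2946 to 4628 in Day 0 and 3145 to 17150 in Recurring. For oligodendrocytes it was 10 of 11 (without Sox10), with 4425 to 12880 and 3060 to 13100. For microglia it was 5 of 10 (without Cx3cr1, P2ry12, Csf1r, C1qc and Aif1), with 213 to 707 and 507 to 6056. For interneurons it was 9 of 11 (without Lhx6 and Reln), with 2425 to 9415 and 1950 to 14060. For endothelial cells it was 5 of 7 (without Cldn5 and Kdr), with 2.97 to 489 and 26.5 to 547. No marker in the table was at 0 in all 8 libraries. The part of these cells in the values below was not tested, and in pooled nuclei fewer cells of a type and less RNA per cell cannot be told apart.

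Promoters were examined first for what the genes share in sequence. RefSeq gave a window for 69 of the 78 members, from 250 bases before to 50 bases after the gene start on GRCm38.p6. Motifs were searched on both strands. The NRF1 motif, bound by a regulator of nuclear genes for respiration, was found in 13 windows (18.8%), against 6.6% of 17492 protein-coding promoters. The ETS motif CCGGAAG, of the family of the respiratory regulator GABP, was in 25 (36.2%, against 11.9%), and the YY1 motif AAGATGGC in 12 (17.4%, against 3.22%). At least 1 of these motifs occurred in 42 members (60.9%, against 19.5%), and 8 members held a pair of them. The cAMP response element TGACGTCA was in 2 (2.9%, against 2.34%), the E-box CACGTG in 5 (7.2%, against 7.9%), and the TATA box TATAAA in 4 (5.8%, against 13.34%). Over all 27025 promoters, coding or not, the shares were 4.78% for NRF1, 9.12% for ETS, 2.88% for YY1, 1.88% for the cAMP response element, 7.24% for the E-box and 14.16% for the TATA box. These matches are a description of the letters and not of binding.

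**Figure D1:**
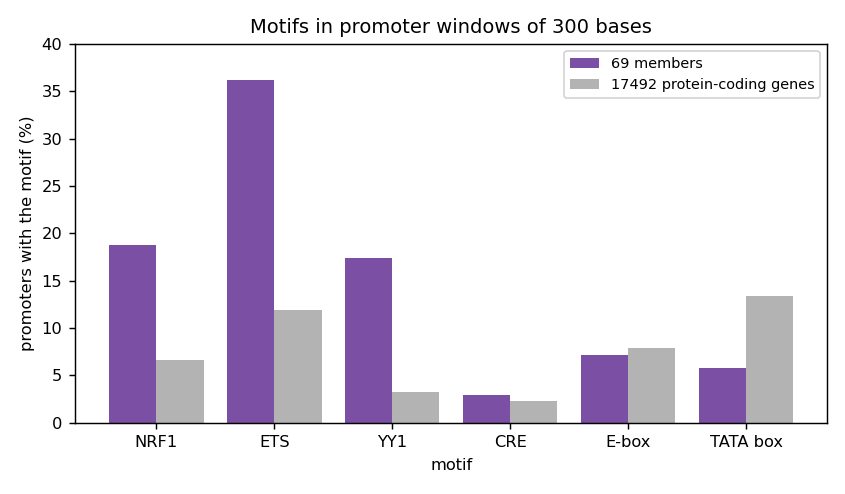
Share of promoter windows (%, vertical axis) holding each of 6 motifs, for 69 mitochondrial ribosomal protein genes (purple) and 17492 protein-coding genes (grey). The members' bars are above the grey bars for NRF1 (18.8% against 6.6%), ETS (36.2% against 11.9%) and YY1 (17.4% against 3.22%), and below it for the TATA box (5.8% against 13.34%).

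The promoters of 3 members are printed: Mrpl16 and Mrpl49, the members with the lowest p in either direction, and Mrps18a, of a family of 3 paralogs. Mrpl16 and Mrpl49 hold the 2 cAMP response elements found in the 69 windows, a share near that of protein-coding promoters (2.9% against 2.34%). No link between this motif and the values was tested. Motifs are in capitals, each sequence runs 5′ to 3′ toward the gene start, and the gene start follows the last base. For Mrpl16, on the plus strand at chr19:11770165-11770414, the capitals mark a TATA box starting 68 bases and a cAMP response element starting 49 bases before the gene start. For Mrpl49, on the minus strand at chr19:6057756-6057946, the sequence is the 191 bases between its start and that of its neighbour Fau, and the capitals mark a cAMP response element starting 154 bases before the Mrpl49 start. For Mrps18a, on the plus strand at chr17:46110754-46111003, they mark an ETS motif starting 26 bases before the gene start. The windows of Mrpl49 and Mrps18a also hold a YY1 motif, which does not lie within the printed bases.
Mrpl16: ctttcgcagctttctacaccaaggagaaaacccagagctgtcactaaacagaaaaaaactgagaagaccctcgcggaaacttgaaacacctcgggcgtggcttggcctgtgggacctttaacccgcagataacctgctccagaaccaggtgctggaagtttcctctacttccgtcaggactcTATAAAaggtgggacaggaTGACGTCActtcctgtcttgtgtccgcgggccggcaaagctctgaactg
Mrpl49: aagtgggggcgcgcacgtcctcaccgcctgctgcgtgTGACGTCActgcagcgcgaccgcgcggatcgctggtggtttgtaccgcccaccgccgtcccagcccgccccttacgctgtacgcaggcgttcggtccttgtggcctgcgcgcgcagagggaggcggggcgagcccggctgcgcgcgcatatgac
Mrps18a: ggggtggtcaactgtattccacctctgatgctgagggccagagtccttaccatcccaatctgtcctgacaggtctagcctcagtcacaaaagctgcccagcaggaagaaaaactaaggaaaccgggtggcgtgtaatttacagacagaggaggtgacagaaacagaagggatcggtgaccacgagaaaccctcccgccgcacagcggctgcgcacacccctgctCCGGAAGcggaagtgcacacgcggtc

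Many members also share a promoter region with another gene. A protein-coding gene on the other strand started within 1000 bases upstream, head to head, for 23 of the 69 members (33.3%), against 7.5% of protein-coding promoters. Mrpl46 and Mrps11, of the large and the small subunit, face each other. Mrps12 faces Sars2, a mitochondrial seryl-tRNA synthetase, and Mrpl47 faces Ndufb5, a complex I subunit. Of 20 such neighbours in the table, 17 pairs had both genes tested, and in 8 of them both differences between Recurring and Day 0 had the same sign.

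Exon overlaps bear on the values, since the counting notes do not say whether strand was used. In GENCODE vM21 models, 33 members share exon bases with another gene, among them Mrpl49 with Syvn1 and Mrpl18 with Tcp1, each pair on opposite strands. The table also holds the pseudogenes Mrpl23-ps1, with a mean normalized count of 17.8, and Mrpl48-ps, with 7.86. Reads could be split between them and Mrpl23 or Mrpl48, so values of both parents are uncertain.

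Messages of the family were read unevenly between libraries. Members with at least 1 read numbered 69, 78, 66 and 56 in the Day 0 libraries and 51, 64, 75 and 68 in the Recurring libraries. Day 0 replicate 2 held every member and Recurring replicate 1 held the fewest, so the groups overlapped. Over the members, 35 (44.9%) were read in all 8 libraries, as were 39.2% of all genes in the table. Another 12 were read in 7 libraries, 16 in 6, 9 in 5, 4 in 4 and 2 in 3. No gene in the table was read in fewer than 3 libraries, and no member was at 0 throughout a group.

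Zeros gathered in certain libraries. Of the 74 tested members, 9.46%, 0%, 10.8% and 24.3% were at 0 in the Day 0 libraries and 32.4%, 16.2%, 4.05% and 12.2% in the Recurring libraries. Over all 11078 tested genes the shares were 10.1%, 3.08%, 12.2% and 19.2% in Day 0 and 17.6%, 12.5%, 4.82% and 11.3% in Recurring. Recurring replicate 1 and Day 0 replicate 4 had the most zeros for members and for all genes, Recurring replicate 1 leading for members and Day 0 replicate 4 for all genes, and Day 0 replicate 2 and Recurring replicate 3 had the fewest for both. Recurring replicate 1 also had the most reads (14887866) and the highest astrocyte marker sum (17150), and their part in its zeros was not tested. At 0 in that library alone were Mrpl21, Mrpl22, Mrps18b and Mrps22. At 0 only in Day 0 replicate 4 were Mrpl10, Mrpl42, Mrps10 and Mrps33, and only in Day 0 replicate 3 Mrpl13, Mrpl17, Mrpl20 and Mrpl51. In Recurring replicate 1 both subunits were affected, with 10 of 26 small-subunit members (38.5%) and 16 of 51 large-subunit members (31.4%) at 0. Cytosolic ribosomal protein genes were at 0 less often in the same library, 13.1% of 84, as were complex I subunit genes, 10.8% of 37. Those differences between lists were not tested.

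**Figure D2:**
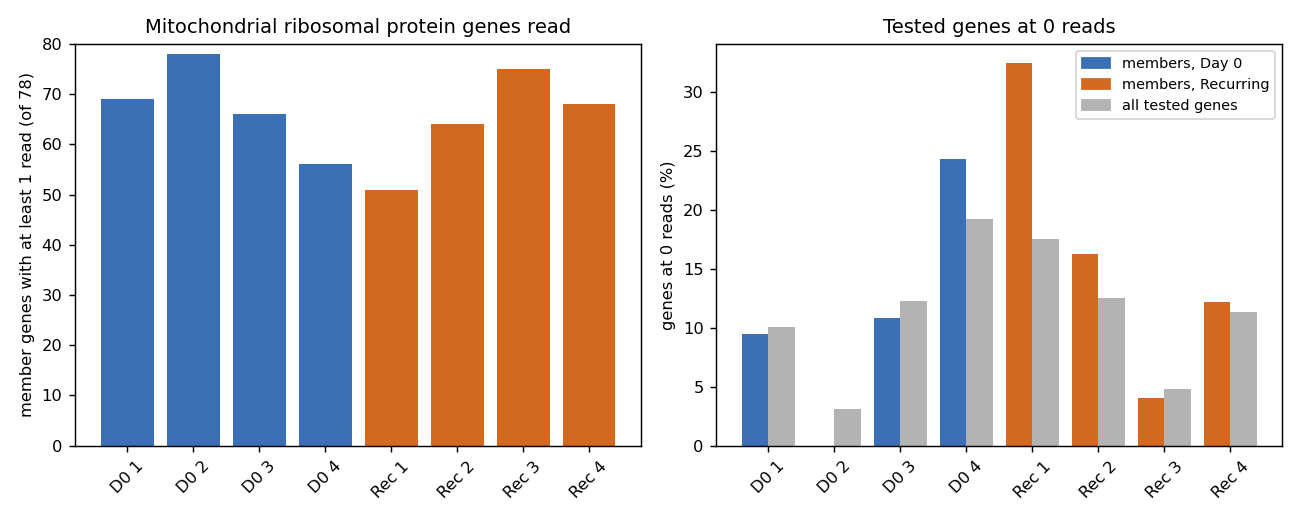
Left, members with at least 1 read (of 78, vertical axis) in each Day 0 (D0, blue) and Recurring (Rec, orange) library. Right, tested genes at 0 reads (%) in the same libraries for members (coloured) and all 11078 tested genes (grey); Recurring replicate 1 has the highest member share, 32.4% against 17.6% of all genes, and Day 0 replicate 2 has none at 0.

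The share of reads taken by the whole family overlapped between the groups. It made up 0.317%, 0.278%, 0.197% and 0.293% of reads in Day 0 and 0.216%, 0.299%, 0.336% and 0.320% in Recurring. For Day 0 the mean was 0.271% ± 0.0518 (SD, n = 4), for Recurring it was 0.293% ± 0.0530 (SD, n = 4), and the groups overlapped. Cytosolic ribosomal protein genes took 0.308% ± 0.0876 and 0.325% ± 0.102, and complex I subunit genes 0.225% ± 0.0466 and 0.252% ± 0.0834 (SD, n = 4 in each). The 8 most abundant members held 28.1% to 42.5% of the family's reads in Day 0 and 31.4% to 43.3% in Recurring. The median member stood at 7.99, 7.50, 6.79 and 7.72 in Day 0 and at 6.69, 7.90, 8.05 and 8.04 in Recurring, on the scale of log2(normalized count + 1), where a normalized count is reads divided by the library's median-of-ratios size factor. Recurring replicate 1 was the lowest of all 8 libraries and Recurring replicates 3 and 4 were the highest.

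Levels between genes are compared per kilobase of merged exon, as the mean of 8 libraries. Mrpl41, a mitochondria-specific protein of the large subunit, led with 3235 normalized counts per kb. Next were Mrpl53 with 706, Mrps12 with 417, Mrpl4 with 393, Mrpl55 with 337 and Mrpl22 with 327. The lowest were Mrpl23 with 3.66, Mrpl33 with 7.78 and Mrps34 with 9.56. The median was 79.8 per kb for the small subunit and 112 for the large subunit, and 106 for members with a bacterial counterpart and 85.2 for mitochondria-specific members. These exon lengths add up every annotated transcript, so a gene with long rare transcripts has a lower value per kb.

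**Figure D3:**
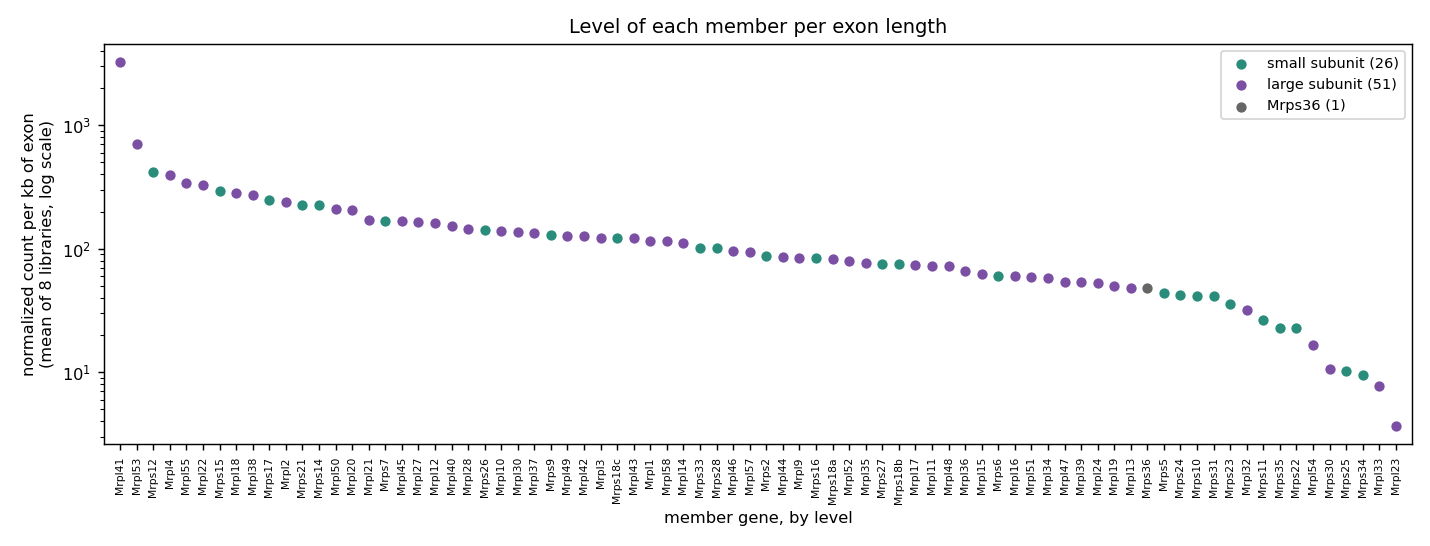
Mean normalized count per kb of exon over 8 libraries (vertical axis, log scale) for each of the 78 members in order of level, coloured by subunit. Mrpl41 stands apart at 3235 per kb, followed by Mrpl53 at 706, and Mrpl23 is lowest at 3.66.

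The comparison of Recurring with Day 0 asks which of these genes differ between place cells of the 2 classes. No member passed the test. By limma on log2(normalized count + 1), with Benjamini-Hochberg adjustment over all 11078 tested genes, 0 of 74 tested members were called at an adjusted p under 0.05, against 0% of all tested genes, and the lowest adjusted p was 0.9805. Mrpl23, Mrpl34, Mrpl44 and Mrpl54 fell short of a normalized count of 10 in 4 libraries and were not tested. limma voom on the recovered reads also called 0 genes. At an unadjusted p under 0.05 there were 2 members, Mrpl49 higher and Mrpl16 lower in Recurring, against 401 of all tested genes (3.62%), of which 1.88% were higher and 1.74% lower. The groups overlapped for every tested member, that is, 0 members had all Recurring libraries above all Day 0 libraries, against 1.24% of all tested genes, and 0 had them all below, against 1.17% (2.41% in either direction).

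Means split almost evenly, with 35 members higher and 39 lower in Recurring. The share higher, 47.3%, compares with 50.1% of all tested genes. The median difference over the members was −0.33 log2, against 0.005 over all tested genes, and the middle 50% of members lay between −1.17 and 0.76. Leaving out Recurring replicate 1 turned the sign: the median became 0.31, with 45 of 74 members higher. Over the 35 members read in all 8 libraries, 19 were higher and 16 lower, with a median of 0.07. These have no zeros, but some held as little as 1 read in a library, such as Mrpl11 and Mrpl57 in Recurring replicate 1.

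Both subunits split between higher and lower means. Of 26 small-subunit members 12 were higher and 14 lower (median −0.39), and of 47 tested large-subunit members 23 were higher and 24 lower (median −0.09). Members with a bacterial counterpart split 22 to 22 (median −0.11) and mitochondria-specific members 13 higher to 16 lower (median −0.35). For comparison, 49 of 80 tested cytosolic ribosomal protein genes were higher (median 0.20), as were 20 of 37 complex I subunit genes (median 0.35), again with none called.

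The precision bounds what these libraries could show. Standard errors of the members' log2 differences ran from 0.49 to 2.79 with a median of 1.91, against 1.78 over all tested genes. For no member did the 95% interval lie within 1 log2 unit of 0, against 1.98% of all tested genes. At 0 in at least 1 library were 39 of the tested members (52.7%), against 45.6% of all tested genes. Over the 35 members read everywhere the median standard error was 1.23. A doubling of a typical member was therefore not detectable at this spread.

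**Figure D4:**
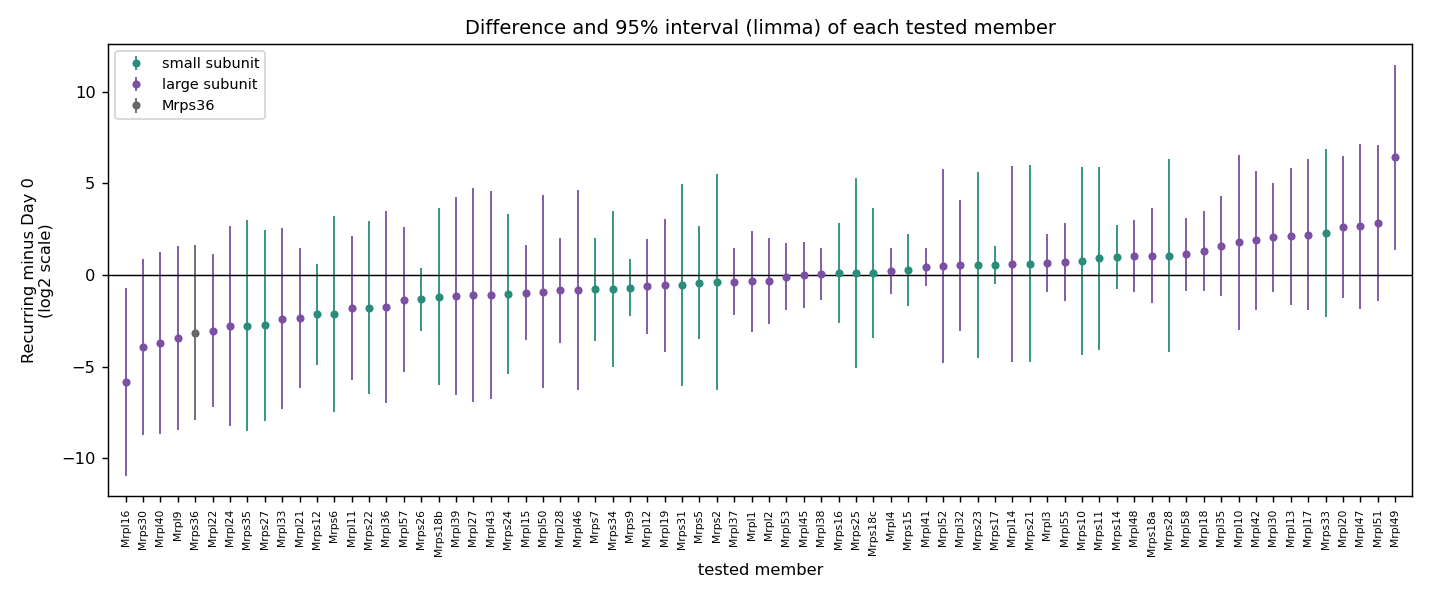
Difference between Recurring and Day 0 (log2 scale, vertical axis) with its 95% interval from limma for each of the 74 tested members in order, coloured by subunit. Differences run from −5.81 (Mrpl16) to 6.42 (Mrpl49), and the intervals of these genes alone leave out 0.

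The 8 members with the highest mean normalized count, not corrected for length, were 4 of each subunit. Of the large subunit, Mrpl41 had normalized counts of 1214, 2280, 2769 and 3087 in Day 0 and 1276, 5719, 2661 and 3974 in Recurring. The lowest library of each group was its replicate 1, and the groups overlapped over most of their range. The log2 difference was 0.43 (SE 0.50). Mrpl4, a counterpart of bacterial L4, which lines the tunnel through which the new chain leaves, stood at 1646, 815, 887 and 568 in Day 0 and at 697, 1330, 1183 and 1100.0 in Recurring. Its highest and its lowest library were both Day 0, and the difference was 0.21 (SE 0.59). Mrpl3, a counterpart of bacterial L3, a core protein of the large subunit, gave 597, 599.7, 1312 and 197 against 592, 778, 1702 and 766, with a difference of 0.67 (SE 0.75). Replicate 3 was the highest of either group. Mrpl38, a mitochondria-specific protein of the central protuberance, gave 932, 494, 810.2 and 480.1 against 480.0, 939, 713 and 684. The ranges almost coincide, and the difference was 0.07 (SE 0.68). These differences moved with single libraries. Mrpl41 was at 0.12 without Day 0 replicate 1, and at 0.82 or 0.11 when Recurring replicate 1 or Recurring replicate 2 was left out. Mrpl3 was at 0.18 without Day 0 replicate 4, 0.36 without Recurring replicate 3 and 1.09 without Day 0 replicate 3. Mrpl4 ran from −0.0139 without Day 0 replicate 4 to 0.48 without Day 0 replicate 1, and was negative in the former fit alone. Mrpl38 ran from −0.0786 without Recurring replicate 2 to 0.23 without Day 0 replicate 1. It was also negative without Day 0 replicate 2 (−0.057) or Day 0 replicate 4 (−0.0706).

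The abundant small-subunit members likewise overlapped between groups. Mrps17, a counterpart of bacterial S17, which binds the ribosomal RNA early in assembly, stood at 845, 1329, 1034 and 2233 in Day 0 and at 1669, 2165, 1858 and 1739 in Recurring. Its Recurring libraries lay close together and above all but 1 Day 0 library, which was the highest of the 8. The difference was 0.54 (SE 0.49, 95% interval −0.49 to 1.58), the tightest of any member. Mrps9, a counterpart of S9, whose tail reaches toward the peptidyl site, had 819, 1041, 590.3 and 972 against 1452, 278, 442 and 413. Recurring held both the highest library and the 3 lowest, and the difference was −0.68 (SE 0.73). Mrps14, a counterpart of S14 in the head of the subunit, had 1085, 503, 122 and 455 against 458, 1224, 1398 and 615, a difference of 0.9955 (SE 0.82). Day 0 replicate 3 was far below the rest. Mrps26, a mitochondria-specific protein, had 648, 1112, 862 and 708 against 157, 353, 905 and 219. All but Recurring replicate 3 were below every Day 0 library, and the difference was −1.33 (SE 0.81, unadjusted p = 0.1198 by limma). Here too single libraries counted: Mrps17 was at 0.33 without Day 0 replicate 1 and 0.82 without Day 0 replicate 4, Mrps9 at −1.19 without Recurring replicate 1 and −0.38 without Recurring replicate 2, and Mrps14 at 0.40 without Day 0 replicate 3.

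**Figure D5:**
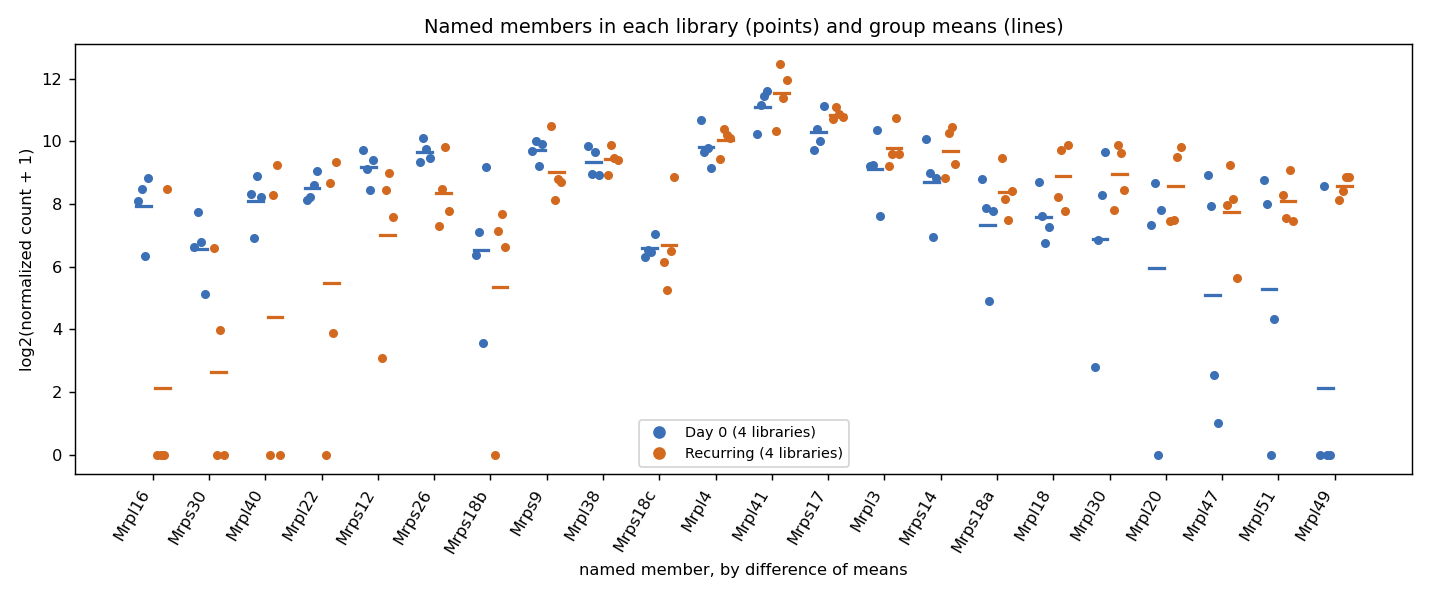
log2(normalized count + 1) of 22 members (horizontal axis, ordered by difference) in each Day 0 (blue) and Recurring (orange) library, with lines at group means. The groups overlap for each gene; points at 0 are libraries without a read, 3 of Recurring for Mrpl16 and 3 of Day 0 for Mrpl49.

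The member with the lowest p was Mrpl49, a mitochondria-specific protein of the large subunit. It had 0, 376, 0 and 0 normalized counts in Day 0 and 279.9, 338, 464 and 459.6 in Recurring. All Recurring libraries were alike, while Day 0 split between 3 libraries without a read and 1 at the Recurring level. The fitted log2 difference was 6.42 (SE 2.40, 95% interval 1.37 to 11.48), and limma gave an adjusted p = 0.9805 (unadjusted p = 0.01586). Its head-to-head neighbour Fau, which encodes a ubiquitin-like fusion with cytosolic ribosomal protein S30, was read in all 8 libraries and differed by −0.28 (SE 1.42). Syvn1, an ubiquitin ligase of the endoplasmic reticulum whose exons overlap Mrpl49 on the other strand, had 161, 416, 3.59 and 1184 in Day 0 and 259, 898, 404 and 448 in Recurring. It was read in each Day 0 library in which Mrpl49 was at 0.

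Mrpl16, a counterpart of L16 near the site where tRNAs enter, was the reverse case. It had 274, 354, 80.1 and 451 in Day 0 and 0, 0, 0 and 357 in Recurring. All but 1 Recurring library lacked it, and that library stood within the Day 0 range. The difference was −5.81 (SE 2.43, 95% interval −10.95 to −0.68), and limma gave an adjusted p = 0.9805 (unadjusted p = 0.02876). Leaving out any of the 3 Recurring libraries at 0 took its unadjusted p above 0.05 by limma. Mrpl49 stayed below 0.05 without each library in turn, which is no support for a difference. It passed the filter through the 4 Recurring libraries and Day 0 replicate 2. Without the latter, only the Recurring libraries let it pass, and every Day 0 library was at 0. Mrpl16 passed in the same way, through the 4 Day 0 libraries and Recurring replicate 4. With so many zeros the fitted sizes rest on the pseudocount of 1: with 8 the differences were −3.61 for Mrpl16 and 4.19 for Mrpl49.

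The other members with the lowest p on the higher side mostly had 1 or more low Day 0 libraries. Mrpl30, a counterpart of L30, had 5.95, 113, 308 and 805 against 225, 939, 786 and 349, a difference of 2.05 (SE 1.42). Mrpl20, a counterpart of the bacterial assembly protein L20, had 161, 406, 0 and 226 against 175, 179, 718 and 894, a difference of 2.60 (SE 1.84). Day 0 replicate 3 alone was without a read of Mrpl20. Mrpl51, specific to mitochondria, had 437, 254, 0 and 19.0 against 314, 189, 537 and 177, a difference of 2.83 (SE 2.01). Mrpl47, a counterpart of L29 at the tunnel exit, had 481, 245, 4.78 and 1.002 against 250.2, 601, 284 and 48.7, a difference of 2.65 (SE 2.12). For both genes Day 0 replicates 3 and 4 were low while replicates 1 and 2 lay within the Recurring range. Mrpl18, a counterpart of the 5S RNA-binding protein L18, had 414, 196, 106 and 153 against 300.4, 849, 217 and 944. Every library held it, and the difference was 1.32 (SE 1.04). Without the lowest Day 0 library of each gene the difference shrank to 0.67 for Mrpl30 (replicate 1), 0.62 for Mrpl20 (replicate 3), 1.07 for Mrpl51 (replicate 3) and 1.29 for Mrpl47 (replicate 4).

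On the lower side the low libraries were Recurring, most often replicate 1. Mrps30, a mitochondria-specific large-subunit protein, had 98.9, 212, 109 and 34.1 against 94.8, 0, 14.8 and 0, a difference of −3.93 (SE 2.28). Mrps12, a counterpart of S12 in the decoding centre, had 839, 553, 351 and 672 against 7.43, 347, 506 and 193, a difference of −2.14 (SE 1.30). Recurring replicate 1 was far below all others for Mrps12. Mrpl40, specific to mitochondria, had 321, 119, 479 and 299 against 0, 310.0, 606 and 0, a difference of −3.71 (SE 2.36). Mrpl22, a counterpart of the tunnel protein L22, had 277, 298, 388 and 533 against 0, 408, 13.8 and 645, a difference of −3.03 (SE 1.97). For Mrpl40 and Mrpl22 Recurring held both the highest and the lowest libraries. Without Recurring replicate 1 the difference shrank to −0.84 for Mrps12, −1.22 for Mrpl22 and −2.24 for Mrpl40, and without Recurring replicate 4 it was −2.26 for Mrpl40. With a pseudocount of 8 it was −2.40 for Mrps30 and −2.24 for Mrpl40. Unadjusted p for these 4 genes ran from 0.1027 for Mrps30 to 0.1421 for Mrpl22 by limma.

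The Mrps18 paralogs descend from 1 bacterial protein, S18, and occupy different places in the ribosome. Mrps18a, in the large subunit, had 440.2, 235, 28.7 and 217 in Day 0 and 706, 286, 177 and 339.9 in Recurring, a difference of 1.05 (SE 1.23). Mrps18b, in the small subunit, had 81.0, 136, 10.8 and 574 against 0, 141, 203 and 98.4, a difference of −1.18 (SE 2.28). Mrps18c, the small-subunit counterpart at the bacterial position, had 78.8, 91.7, 87.2 and 130.3 against 69.99, 37.1, 90.04 and 467, a difference of 0.11 (SE 1.69). Day 0 replicate 3 was the lowest Day 0 library for Mrps18a and for Mrps18b, and Recurring replicate 1 had no read of Mrps18b, while Mrps18c was even over Day 0 and had its highest value in Recurring replicate 4. Leaving out 1 library took Mrps18a to 0.23 (Day 0 replicate 3) and 0.67 (Recurring replicate 1). It took Mrps18b from −2.20 (Day 0 replicate 3) to 0.59 (Recurring replicate 1), and Mrps18c from −0.62 (Recurring replicate 4) to 0.59 (Recurring replicate 2), so neither sign held. Per kb of exon the means were 82.3, 74.5 and 122 in that order.

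Within the other genes of mitochondrial translation, calls were likewise absent, with adjusted p of 0.9805 or more by limma. Of 5 mitoribosome proteins with other symbols, 1 was higher and 4 lower. Ptcd3, a small-subunit protein with RNA-binding repeats, had 1271, 1588, 3951 and 918 against 396, 797, 1805 and 372, a difference of −1.28 (SE 0.67). Of 22 tested assembly genes, 10 were higher and 12 lower, and 1 of these had an unadjusted p under 0.05. That was Mrm3, a methyltransferase of the large ribosomal RNA, with 426, 162, 343 and 263 against 0, 54.1, 75.2 and 0, a difference of −5.13 (SE 2.25, unadjusted p = 0.03586 by limma). Its groups did not overlap, against 2.41% of all tested genes. Dhx30, an RNA helicase of assembly, was the most abundant on that list with a mean of 6521, and differed by 0.33 (SE 0.31).

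Among 12 tested translation factors 5 were higher and 7 lower. The elongation factor Tufm differed by 3.11 (SE 1.87), with Day 0 replicate 4 at 0. Guf1, a GTPase of mitochondrial translation, differed by 0.80 (SE 0.52), with Recurring replicate 1 at 8209 and all other libraries at 1257 to 2781. Among 18 mitochondrial tRNA synthetases 8 were higher and 10 lower. Cars2, for cysteine, differed by −3.44 (SE 2.33), with Recurring replicate 2 at 0 and Recurring replicate 4 at 1.015. Lars2, for leucine, differed by 0.31 (SE 0.45). Among 9 tested genes of mitochondrial DNA expression 5 were higher and 4 lower, with Mterf1b, of the transcription terminator family, at 0, 0, 3.59 and 0 against 31.0, 286, 60.4 and 19.3. Every Day 0 library was under a normalized count of 10, so the gene was tested only because all 4 Recurring libraries reached it. That its groups did not overlap was therefore fixed by the filter and is no result. Mterf1b differed by 5.31 (SE 1.84, unadjusted p = 0.01013 by limma), from values selected in the same way. It is named as the smallest p of its list, and 3.62% of all tested genes had an unadjusted p under 0.05. Mterf1b has the near-identical paralog Mterf1a, between which reads could be split. Ssbp1, which coats single-stranded mitochondrial DNA, differed by 0.09 (SE 0.47).

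Mitochondrially encoded genes are the messages this ribosome translates and its own ribosomal RNAs, and took a small share of the reads. That share was 0.0277% ± 0.0208 for Day 0 and 0.0637% ± 0.0415 for Recurring (SD, n = 4 in each). The groups overlapped: Recurring replicates 2 (0.109%) and 4 (0.0883%) were above every Day 0 library, while replicates 1 (0.0300%) and 3 (0.0270%) lay within the Day 0 range of 0.0109% to 0.0580%. The same replicates 2 and 4 had the highest microglia marker sums, 1861 and 6056, against 213 to 808 in the other libraries, and the part of those cells was not tested. Mitochondrial DNA lies outside the nucleus. The part of material carried over with the nuclei in these values, mt-Co1 included, was not tested either. Of 9 tested, 7 messages and 2 ribosomal RNAs, 6 were higher and 3 lower, and 2 of the former had an unadjusted p under 0.05, against 3.62% of all tested genes. These were mt-Co1 and mt-Cytb, the latter named after its values were seen. mt-Co1, the catalytic subunit of cytochrome c oxidase, had 607, 235, 508 and 593 in Day 0 and 655, 5573, 1128 and 2988 in Recurring. Its groups did not overlap, as for 2.41% of all tested genes, though Recurring replicate 1 was just above the highest Day 0 library. The difference was 2.04 (SE 0.72), and limma gave an adjusted p = 0.9805 (unadjusted p = 0.01182).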

How the data were processed

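Nuclear RNA of 8 libraries was sequenced. Per the submitters' processing notes, STAR, HTSeq and GRCm39 were used. The authors deposited 1 table whose values are used here as signal: whole reads times 1 constant per gene, with no correction for library depth. How the scaling was done is not given in the sources used here. The constants were inferred, by modelling each as a trimmed mean of M values of the gene against a reference gene, Ptdss1, over the libraries. Reads and depths given here rest on that inference. Dividing out the constants returned whole reads for 95910 of 95910 values above 0 within 0.1 read. All rows were matched to samples.

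Size factors by median of ratios (0.837 to 1.615) scaled the reads, and log2(normalized count + 1) was tested with limma 3.58.1 in R 4.3.3 (variance trend, Benjamini-Hochberg, two-sided). The test covered the 11078 genes that reached a normalized count of 10 in 4 or more libraries. Recovery and fit were tested on simulated data. The members and lists were chosen with earlier results of these data known. Members given in every library are the 8 with the highest mean normalized count (not per kb), the 6 higher and 6 lower with the smallest p, and the Mrps18 paralogs. From each other list the gene with the smallest p and the gene with the highest mean are named. Some of those are given without the values of every library. Alternatives changed the scaling, pseudocount, filter, trend, model and libraries. Fits of the count models planned beside limma were not run. Promoters came from RefSeq (GRCm38.p6), which was used for no other coordinate. Depth per library is that of the recovered reads, and precision is given by the standard errors.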

Additional observations from a re-analysis of the deposited data

Results flagged for a closer look

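In each group of 4 libraries, a value was singled out when its gap to the nearest other library was too large a part of the group's range by Dixon's 95% critical value. This held in 5 of 50 groups examined. That count cannot be set against the rule's 5% rate, since many of the genes were named for their smallest p. A group with reads in 1 library alone is also always singled out. On the log2(normalized count + 1) scale, Mrpl49 was 8.56 in Day 0 replicate 2 with the other Day 0 libraries at 0. Mrpl16 was 8.48 in Recurring replicate 4 with the other Recurring libraries at 0. Mrpl20 was 0 in Day 0 replicate 3, and Mrps18b was 0 in Recurring replicate 1, each with reads in the other libraries of its group. The median over all members was 6.69 in Recurring replicate 1, below the other Recurring libraries.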

How the results depend on the processing

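Over 15 alternatives no member was called, and differences of 18 of 22 named members kept their sign, though leaving out 1 library moved many in size (values beside each gene). The 22 include the 6 higher and 6 lower members with the smallest p in the same reads. The count of kept signs therefore follows in part from how they were named. Of 319 alternative values for them 6 changed sign, each without 1 library: the ranges were −0.0786 to 0.2303 for Mrpl38, −0.0139 to 0.4796 for Mrpl4, −2.20 to 0.59 for Mrps18b and −0.62 to 0.59 for Mrps18c. The median difference over tested members (−0.33) ran from −0.59 to 0.31 without 1 library, and was 0.31 without Recurring replicate 1. It was −0.35 with TMM factors, −0.21 on the deposited values, −0.03 with a pseudocount of 8, −0.07 without a filter, −0.25 by voom and 0.10 over the 29 members with a normalized count of at least 10 in all 8 libraries. These 29 included 0 members with an unadjusted p under 0.05, since Mrpl16 and Mrpl49 are left out by that filter; leaving out 1 library gave 1 to 2. Without a variance trend limma called 2 of all tested genes, neither a member, and 3 members had an unadjusted p under 0.05. Voom gave 518 genes at an unadjusted p under 0.05. The difference in the family's share of reads ran from −0.00323 to 0.0468 percentage points without 1 library. Where no cause is given, the cause was not tested. No paired analysis was possible because each title names a different mouse and the replicate numbers pair nothing. The planned edgeR and DESeq2 fits were not run. With 4 libraries a group, the spread between libraries limits precision, also for the 35 members read in all of them.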
